A study of Mus musculus with 4 samples.

Results

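The genes described here are 35 mouse orthologs of genes named at risk loci for Alzheimer's disease. They were followed in a methylation comparison of wild-type microglia (WT) and microglia lacking the transcription factor IRF8 (IRF8KO). The members were taken from a fixed list of symbols, and all 35 were found among the 21938 protein-coding genes of GENCODE M21. A row of either deposited table was assigned to a gene when it lay inside the gene or within 10000 bp of it. Both groups had 2 samples of sorted, untreated microglia from C57BL/6J mice aged 3 months, and genotype was the difference between them that the labels give. The labels do not say how the Irf8 allele was made, in which cells it was deleted, or whether the samples of a group came from separate animals. DNA from the sorted cells was treated with bisulfite, which converts unmethylated cytosine, and was sequenced over the whole genome.

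The methylation values are the authors' own fits of the 2 groups, in a table of regions and a table of single positions (called listed positions here). Values per sample are not in them, so replicate spread cannot be shown beside a difference, and the read depth is unknown. Group numbers stand in the headers without a genotype, so the genotype of the first group is not known here. A difference is the first minus the second group on the scale of the methylation level, which runs from 0 (no methylation) to 1 (full methylation). Levels of either group are not given, since no header matches them to a genotype. No marker of cell identity could be examined, because the tables hold only differing positions. The site table lists 269406 positions whose posterior probability is at least 0.95. By its header, this is the probability of a difference over a preset size. That size is not given in the sources used here, and positions with smaller differences can be missing from the list. Of these, 18.7% also had a false discovery rate (FDR) under 0.05 by the authors' test, and these are called past the threshold.

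Most inherited risk for late-onset Alzheimer's disease maps to genes of a few cell functions, many of which microglia use: endocytosis and sorting of membrane proteins, transport of lipids, and signalling below immune receptors. A smaller set, with the amyloid precursor protein App and the proteases that cut it, concerns the making of amyloid-β. In microglia, IRF8 binds many of its targets together with the ETS factor PU.1, and methylation of CpGs at enhancers is generally low where such factors are bound.

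A region lay at 8 of the 35 members (22.9%): Bin1, Picalm and Sorl1 among the endocytosis and sorting genes, Abca1 among the lipid transporters, Blnk among the immune signalling genes, Tspan14 among the genes of amyloid processing, and Wwox and Zcwpw1 among the rest. They held 22 regions. Of these, 13 had the lower level and 9 the higher level in the first group, and 8 of the 13 lower ones lay in Bin1. Over all protein-coding genes 9.19% had a region. That share depended on gene length, and the members were long, with a median of 58.5 kb against 17.4 kb for all genes.

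Among genes under 20 kb, 3.96% had a region and 0 of 7 members did. For genes of 20 to 50 kb the share was 9.34%, and 1 of 9 members had one. In the class of 50 to 100 kb it was 16.7%, with 4 of 8 members (Bin1, Picalm, Tspan14 and Blnk), and above 100 kb it was 26.1%, with 3 of 11 members (Sorl1, Abca1 and Wwox). Weighted to the members' own lengths, the share over all genes was 15.2%, against the members' 22.9%. That share corresponds to 5.32 of 35 genes. The members' 8 against 5.32 was not tested.

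**Figure D1:**
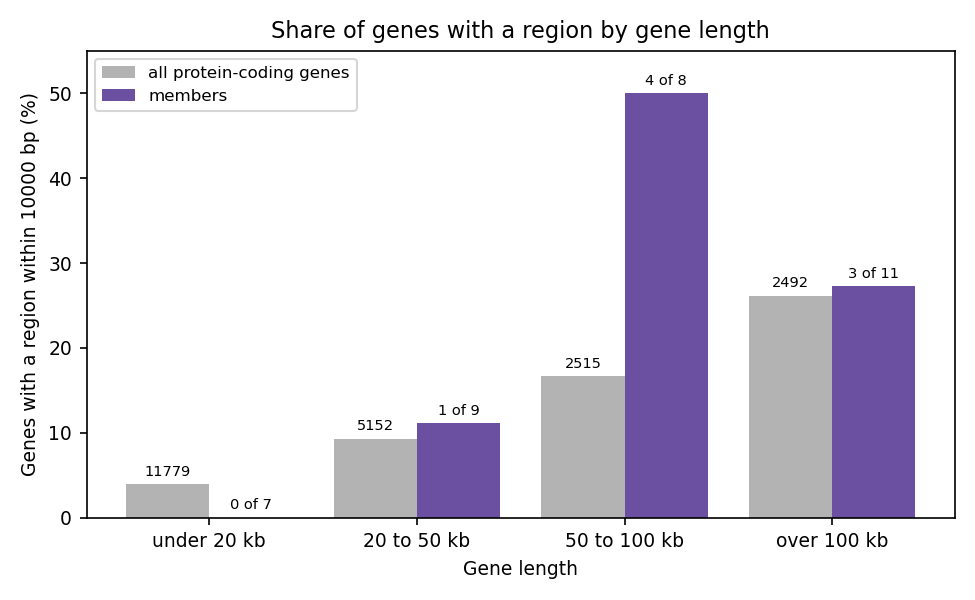
Share of genes with a region inside or within 10000 bp (y axis, percent) in 4 classes of gene length (x axis), for all protein-coding genes (grey, number of genes above each bar) and for the members (purple, number with a region of how many). The members exceed all genes most in the 50 to 100 kb class (4 of 8 against 16.7%), lie close to them from 20 to 50 kb (1 of 9 against 9.34%) and above 100 kb (3 of 11 against 26.1%), and have no region under 20 kb.

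Listed positions were more widespread than regions. At least 1 lay at 33 of the members, against 64.1% of all protein-coding genes and 77.8% after weighting to the members' lengths. Psen2, a catalytic subunit of γ-secretase, and Slc24a4, a sodium, potassium and calcium exchanger, had none. A position past the threshold lay at 19 members (54.3%), against 30.8% of all genes and 46.1% at the members' lengths. The member windows held 879 listed positions, of which 224 (25.5%) were past the threshold. Of those 224, 66 had a higher level in the first group and 158 a lower one, a share of 29.5% higher, where over all listed positions past the threshold 58.1% were higher. Bin1 alone held 90 of the 158 lower ones. Without it the split was 66 of 134 higher (49.3%).

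The authors' test uses a dispersion, the assumed spread between samples, for each position and group, and many positions carry the value most frequent in the table for that group, called the common dispersion here. Any other value is called a position's own. At 9 of the 19 members a position with its own dispersion in both groups was past the threshold. At the other 10 (Abi3, Adam10, Adam17, Cass4, Celf1, Cr1l, Ms4a6d, Sorl1, Tspan14 and Zcwpw1) every position past the threshold carried the common dispersion in at least 1 group.

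**Figure D2:**
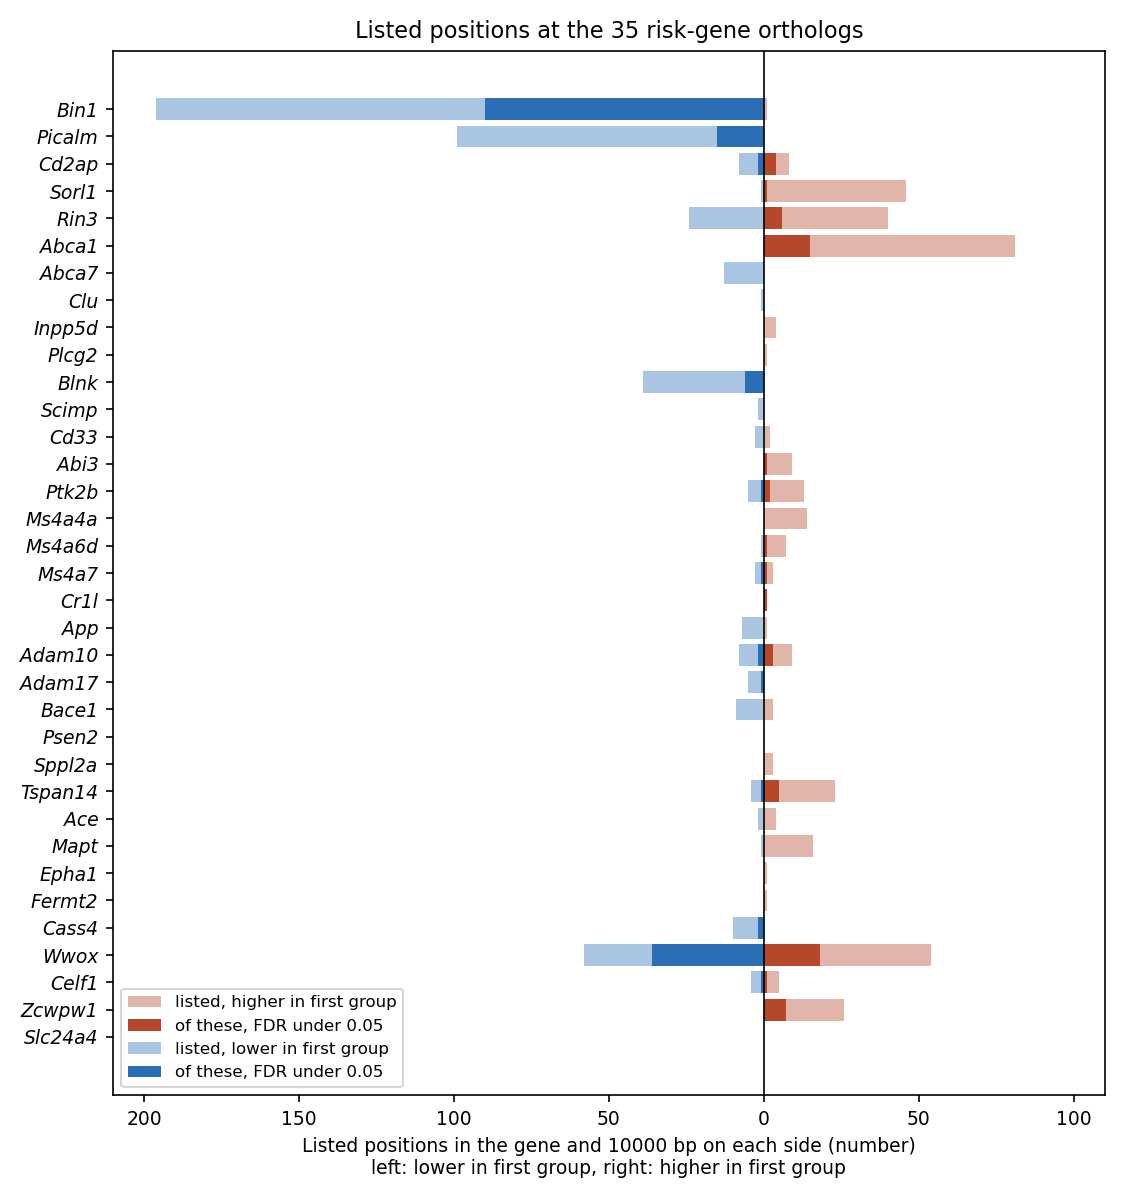
Number of listed positions at each of the 35 members (rows, ordered by function), drawn to the right where they were higher and to the left where they were lower in the first group. The dark part of each bar holds the positions with an FDR under 0.05. Bin1 (196 of 197 lower), Picalm (99 of 99 lower) and Blnk (39 of 39 lower) extend to the left, Abca1 (81 of 81 higher), Sorl1 (46 of 47 higher) and Zcwpw1 (26 of 26 higher) to the right, and Wwox to both sides.

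Sequences of 6 member regions are shown: 5 are the longest stretches of differing cytosines outside Bin1, and 1 has a binding motif nearby. They are read from the forward strand of GRCm38 5′ to 3′, cut to 240 bases. The Bin1 regions are not printed. In the first 5, capitals mark each CpG, the dinucleotide at which most methylation in these cells is set. The list opens with the region of largest area score (the sum of the authors' test statistics over a region) in Picalm, chr7:90167693-90167932, with 11 CpGs in the printed stretch. The others are Abca1, chr4:53109164-53109403, Blnk, chr19:40992666-40992905, and both regions of Wwox, chr8:114684374-114684613 (lower in the first group) and chr8:114615965-114616204 (higher). In the last sequence, from chr7:90139759-90139998 in Picalm, capitals mark a composite element for ETS and IRF factors on the reverse strand, 58 bp outside the region. These sequences were chosen after the values had been seen.
Picalm intron 4: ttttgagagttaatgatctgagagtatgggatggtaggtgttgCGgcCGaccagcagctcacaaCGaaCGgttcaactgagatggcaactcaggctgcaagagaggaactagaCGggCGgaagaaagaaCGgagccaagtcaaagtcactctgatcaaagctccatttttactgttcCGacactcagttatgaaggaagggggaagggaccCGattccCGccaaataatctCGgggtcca
Abca1 exon 6: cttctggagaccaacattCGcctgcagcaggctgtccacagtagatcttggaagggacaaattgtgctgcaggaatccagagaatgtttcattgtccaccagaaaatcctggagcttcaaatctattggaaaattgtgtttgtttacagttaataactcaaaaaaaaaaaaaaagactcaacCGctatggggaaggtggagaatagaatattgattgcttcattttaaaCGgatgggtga
Blnk intron 1: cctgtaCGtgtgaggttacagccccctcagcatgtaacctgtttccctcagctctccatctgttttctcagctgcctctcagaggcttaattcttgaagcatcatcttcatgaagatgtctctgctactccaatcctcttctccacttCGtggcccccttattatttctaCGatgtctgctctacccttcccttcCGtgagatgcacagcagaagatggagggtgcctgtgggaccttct
Wwox intron 6: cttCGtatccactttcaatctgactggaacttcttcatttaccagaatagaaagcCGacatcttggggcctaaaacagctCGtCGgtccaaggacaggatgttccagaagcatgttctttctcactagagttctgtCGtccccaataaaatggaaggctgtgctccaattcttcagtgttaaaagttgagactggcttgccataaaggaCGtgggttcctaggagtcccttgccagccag
Wwox intron 5: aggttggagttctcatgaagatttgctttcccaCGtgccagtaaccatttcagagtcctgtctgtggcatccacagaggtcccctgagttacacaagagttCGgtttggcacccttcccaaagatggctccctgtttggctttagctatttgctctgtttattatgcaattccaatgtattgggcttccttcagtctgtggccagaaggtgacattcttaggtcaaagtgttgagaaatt
Picalm intron 1: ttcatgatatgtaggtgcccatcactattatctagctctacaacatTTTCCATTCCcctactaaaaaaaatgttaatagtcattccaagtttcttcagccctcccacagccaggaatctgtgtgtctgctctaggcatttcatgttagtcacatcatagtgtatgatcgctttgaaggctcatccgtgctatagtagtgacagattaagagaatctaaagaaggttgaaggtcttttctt

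Among the 5 endocytosis and sorting genes, 3 had a region and all 5 had a position past the threshold, where at their lengths 20.4% and 59.1% of all genes did. Of their 12 regions 11 had the lower level in the first group, and of their 118 positions past the threshold 107 were lower. Bin1 supplied 8 of these 11 regions and 90 of these 107 positions. Without it 3 of 4 regions and 17 of 28 positions were lower. Over the whole genome 53.3% of regions and 58.1% of listed positions past the threshold were higher in the first group. This group, like the other groups by function, was formed after the values had been seen, and its shares were not tested.

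Bin1 encodes amphiphysin 2, a protein that binds and curves membranes. It carried the most regions of the members: 8, all lower in the first group, in the first intron (6 regions) and the second intron (2 regions) of a gene that spans 32377230 to 32435737 on chromosome 18. The region nearest the start, 1465 bp inside the gene (chr18:32378695-32380638), was the longest and held 54 cytosines. It differed by -0.575 per the authors' deposited table, the largest of the 22 by absolute value. The 54 listed positions in it differed by -0.336 to -0.658 with a median standard error of 0.0907 in the authors' deposited table, and 45 of them were past the threshold. Its area score exceeded that of 99.6% of all regions by absolute value.

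The other 7 Bin1 regions held 5 to 16 cytosines and lay 8738 to 34338 bp from the start. In the authors' deposited table the largest difference among them was -0.505, at chr18:32393160-32393623, 15930 bp from the start. The smallest there was -0.311, at chr18:32411568-32411725, the farthest from the start. The other 5 ranged from -0.378 to -0.470 by the authors' deposited table, with median standard errors of their positions from 0.0964 to 0.114. Each of the 8 held at least 1 position past the threshold, from 1 in the last to 45 in the first. Of about 2146 tested positions in the Bin1 window, 9.18% were listed, and 58 of the 21938 protein-coding genes had a higher share. Only 10 protein-coding genes had 8 or more regions, Bin1 included, and in 4 of these all regions went one way. Among genes of Bin1's length, 11% of the 200 nearest had any region.

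Picalm, a clathrin assembly protein, had 3 regions, all lower in the first group and all intronic. The largest, chr7:90167623-90168003 in intron 4, held 31 cytosines and 15 reference CpGs. Its difference was -0.370 per the authors' deposited table, the median standard error of its positions was 0.100, and 4 of its 31 listed positions were past the threshold. The region in intron 1 (chr7:90139872-90139944), 9659 bp from the start, had a difference of -0.525 over 5 cytosines in the authors' deposited table, with 4 positions past the threshold. The third, in intron 20 (chr7:90202015-90202103), differed by -0.476 over 4 cytosines in the authors' deposited table. All 99 listed positions of Picalm were lower in the first group, in 21 clusters within 500 bp that ran over most of the gene. They made up 6.90% of the tested positions there, and 15 were past the threshold.

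Sorl1, a sorting receptor for App, differed in the opposite direction. Its region in intron 45 (chr9:41975855-41975984) had a difference of 0.375 over 8 cytosines in the authors' deposited table, but none of its 8 listed positions was past the threshold (smallest FDR 0.0627). The position of Sorl1 that passed lay elsewhere, in intron 16 (position 42040198), with 0.406 ± 0.0299 (difference and its standard error) and an FDR of 6.4e-36 in the authors' deposited table. It carried the common dispersion in at least 1 group. The other strand of the same CpG (position 42040197), with its own dispersion, had the same difference with a standard error of 0.114 and an FDR of 0.181 per the authors' deposited table. Rin3, an exchange factor for the endosomal GTPase Rab5, had no region and 64 listed positions, of which 40 were higher and 24 lower. Its 6 positions past the threshold were all higher in the first group. The strongest, a CpG in intron 3 (position 102334520), differed by 0.704 ± 0.0675 with an FDR of 4.29e-20 per the authors' deposited table. Cd2ap, an adaptor that links membrane receptors to actin, had 6 positions past the threshold, 4 higher and 2 lower, of which the smallest FDR (1.6e-06, difference 0.522 ± 0.0819 in the authors' deposited table) was at a CpG in intron 2.

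**Figure D3:**
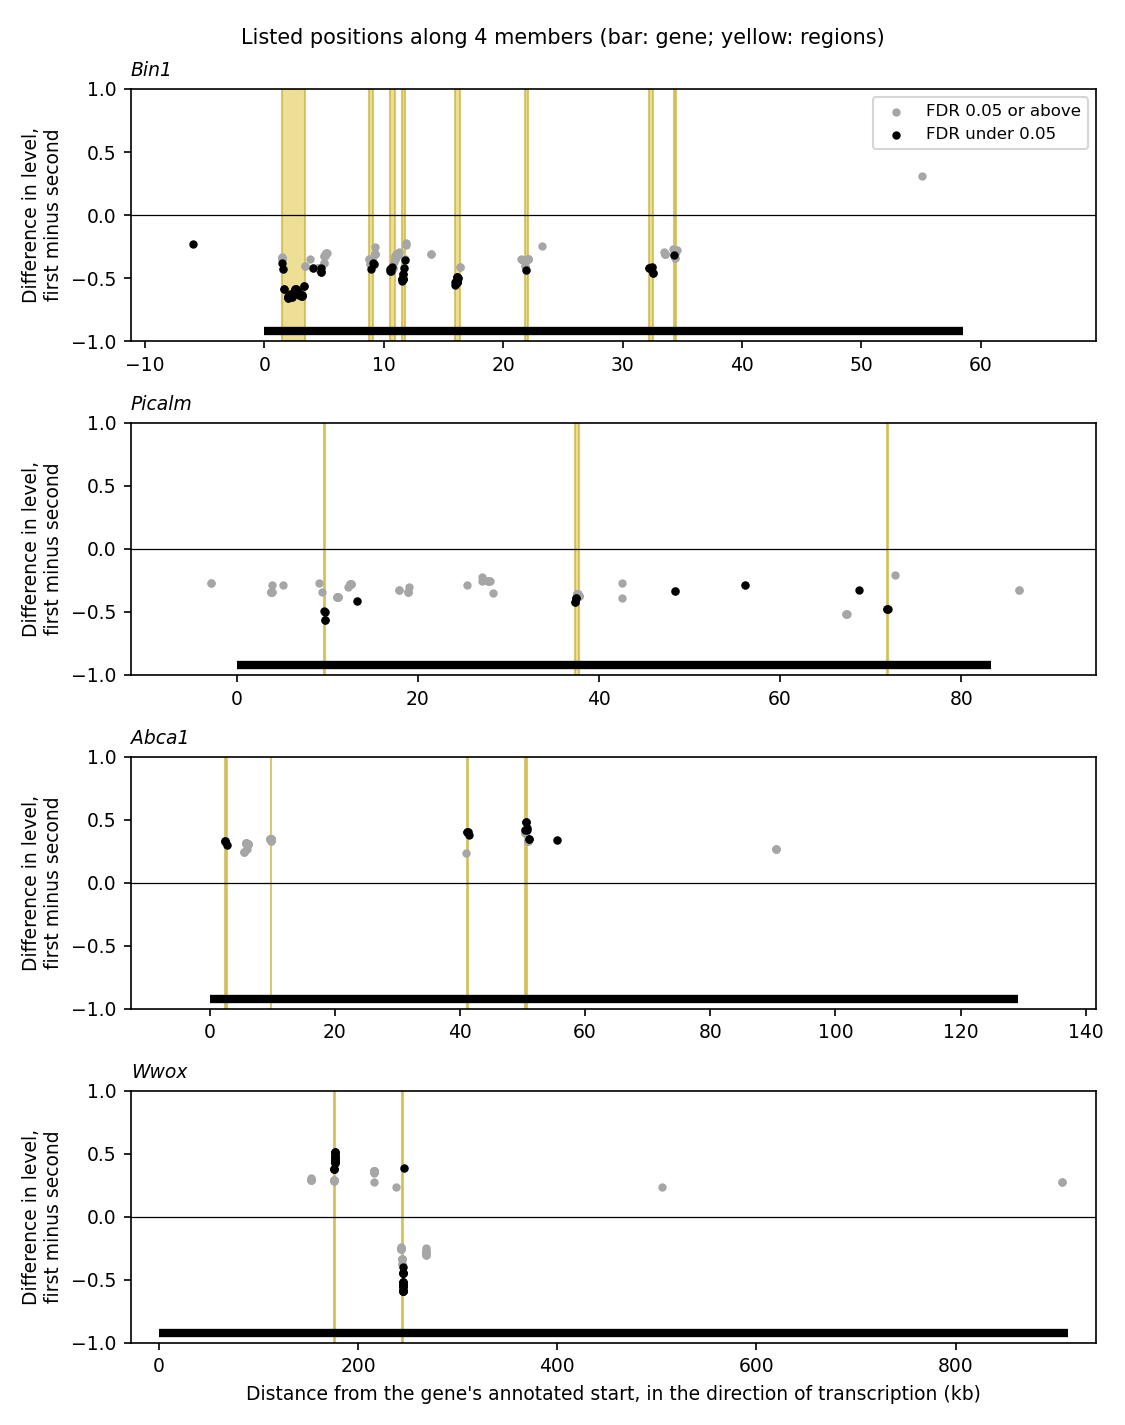
Difference in methylation level at each listed position (y axis, first minus second group) against the distance from the annotated start of the gene in kb (x axis), for Bin1, Picalm, Abca1 and Wwox. Black points have an FDR under 0.05, grey points do not, yellow bands are the regions and the black bar is the gene. The Bin1 positions cluster below 0 in the first 35 kb, those of Picalm lie below 0 along the gene, those of Abca1 lie above 0, and Wwox has a cluster above and another below.

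Of the 3 lipid transport genes, only Abca1 had regions (33.3% of the genes), and only Abca1 had positions past the threshold (33.3%). Among genes of like length 11.3% had a region and 37.4% such a position. Abca1 encodes the transporter that loads cholesterol and phospholipid onto apolipoproteins. Its 4 regions were all higher in the first group, as were its 81 listed positions. The largest region, chr4:53109104-53109465, overlapped coding exon 6. The authors' deposited table gives it a difference of 0.440 over 15 cytosines, and 5 of its positions were past the threshold. The region in intron 5 (chr4:53118551-53118697) had 0.403 over 10 cytosines in the authors' deposited table, with 3 positions past the threshold. Both others lay in intron 1, 2491 and 9796 bp from the start, and were smaller, with 5 cytosines each. Their differences were 0.314 and 0.340 by the authors' deposited table. The one at 9796 bp held no position past the threshold. Abca7, a related lipid transporter, had 13 listed positions in 1 cluster 9171 to 9437 bp past the end of the gene, all lower in the first group and none past the threshold (smallest FDR 0.855). Clu, the lipid-binding chaperone clusterin, had 1 listed position, also not past it.

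The 11 immune signalling and receptor genes had 1 region between them (9.09% of the genes), near the 12.6% of genes of like length. It lay in intron 1 of Blnk, an adaptor below the B cell receptor and related receptors, 1557 bp from the start (chr19:40992594-40992978). By the authors' deposited table it differed by -0.403 over 16 cytosines, and 5 of its 16 positions were past the threshold. All 39 listed positions of Blnk were lower in the first group. Plcg2 and Inpp5d, enzymes that act next to such adaptors, had no position past the threshold. Plcg2, phospholipase C-γ2, had 1 of about 5189 tested, and Inpp5d, the phosphatase SHIP1, had 4 of about 2570 (0.156%), where the median over all genes was 0.175%. Cd33, an inhibitory receptor for sialic acid, had 5 and Scimp, an adaptor of Toll-like receptor signalling, had 2, again none past it. Those of Scimp lay past the end of the gene.

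A position past the threshold lay at 6 of the 11 immune signalling and receptor genes (54.5%), against 39.7% of genes of like length. In those other than Blnk such positions were single or few. Ms4a6d, a membrane protein of the Ms4a family, had 1 in intron 3 with a difference of 0.540 ± 0.0908 in the authors' deposited table (FDR 1.59e-05). Its neighbours at positions 11595241 and 11595250 had the same difference with FDRs of 0.444 and 0.575 in the authors' deposited table. Ms4a7 of the same family had 2 past the threshold, in opposite directions, the stronger with 0.456 ± 0.0873 in the authors' deposited table. The other strand of that CpG (position 11322715) had the same difference and an FDR of 0.261 in the authors' deposited table. Ms4a4a had 14 listed positions, all at CpGs and all higher in the first group, of which none passed (smallest FDR 0.161). Ptk2b, the tyrosine kinase Pyk2, had 3, and the strongest, at a CpG in intron 2 counted on both strands, had a difference of 0.611 ± 0.125 in the authors' deposited table (FDR 0.00207). Cr1l, a regulator of complement, had 1 position past the threshold outside the gene, with 0.273 ± 0.0501 in the authors' deposited table (FDR 0.00018). Abi3, a component of actin regulatory complexes, had 1 with a difference of 0.268 and an FDR of 0.0363 in the authors' deposited table. That position also lies inside Gngt2, so it cannot be assigned to either gene alone.

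Of the 9 genes of amyloid and tau processing, 1 had a region (11.1%) and 3 had a position past the threshold (33.3%), where 16.6% and 49.1% of genes of like length did. The region lay in intron 2 of Tspan14, a tetraspanin that associates with the protease Adam10 (chr14:40921209-40921264). It spanned 56 bp with 1 reference CpG. Its 4 cytosines gave a difference of 0.454 per the authors' deposited table. Of its positions 3 were past the threshold, all with the common dispersion in at least 1 group. The fourth (position 40921210), the other strand of a CpG that passed and with its own dispersion, had an FDR of 1 and a standard error of 0.216 in the authors' deposited table. Adam10, the main α-secretase, had 5 positions past the threshold in 4 clusters, 3 higher and 2 lower in the first group. The strongest, in intron 2 and not on a reference CpG, had -0.294 ± 0.0411 in the authors' deposited table (FDR 1.34e-08). A neighbouring CpG position (70706662) with its own dispersion had the same difference and was not past the threshold. Its standard error was 0.111 in the authors' deposited table. Adam17, a related protease, had 1 past the threshold, with a difference of -0.394 and an FDR of 0.0369 in the authors' deposited table. App had 8 listed positions of about 6195 tested, Mapt (tau) 17, Bace1 (β-secretase) 12, Ace (angiotensin-converting enzyme) 6 and Sppl2a (an intramembrane protease) 3, with none past the threshold. The smallest FDR among these 5 genes was 0.187, in the window of Bace1. All listed positions of Ace and Sppl2a lay outside the gene in its flanks, as did most of those of Mapt and Bace1.

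Of the 7 remaining genes, Wwox and Zcwpw1 had regions (28.6%), and 4 genes had a position past the threshold (57.1%). Among genes of like length 15.5% and 46.4% did. Wwox, an oxidoreductase gene of 913 kb, the longest of the members, had 2 regions of opposite direction, 176178 and 244392 bp from its start. The region in intron 6 (chr8:114684047-114684941) held 42 cytosines with a difference of -0.508 in the authors' deposited table, and 36 of them were past the threshold. The region in intron 5 (chr8:114615833-114616337) held 25 cytosines with 0.443 in the authors' deposited table, and 17 of them were past the threshold. By absolute area score they exceeded 98.3% and 88.8% of all regions. Among the 200 genes nearest to Wwox in length, 36% had a region and 100% had a position past the threshold.

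Zcwpw1, a reader of histone methylation known from meiosis, had 2 regions, both higher in the first group. One, chr5:137796438-137796627, overlapped coding exon 3, with a difference of 0.438 over 6 cytosines in the authors' deposited table. The other, in intron 16 (chr5:137821006-137821235), had 0.408 over 4 cytosines in the authors' deposited table, and the reference holds 0 whole CpGs in it, though its last base is the C of one. That position was 1 of its 4 past the threshold, and the other 3 were not on a reference CpG. Cass4, a scaffold of focal adhesions, had 10 listed positions in 1 cluster of intron 1, all lower in the first group, of which 2 passed, neither on a reference CpG. The stronger (position 172413510) had -0.393 ± 0.0762 and an FDR of 0.000678 in the authors' deposited table. Celf1, an RNA-binding protein, had 2 past the threshold, 1 in each direction. The stronger, in intron 1 (position 90966563), had -0.389 ± 0.0768 and an FDR of 0.00106 per the authors' deposited table. Fermt2, an integrin activator, and Epha1, an ephrin receptor, had 1 listed position each, not past the threshold. That of Epha1 lay upstream of the gene.

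Differences at the 22 member regions were of like size in both directions. The 13 lower regions ran from -0.311 to -0.575 in the authors' deposited table, with a median of -0.422, where all lower regions had a median of -0.413. The 9 higher ones ran from 0.314 to 0.454 in the authors' deposited table, with a median of 0.408 against 0.398 for all higher regions. The median absolute difference of member regions was 0.422, with a range from 0.311 to 0.575, and over all 3389 regions it was 0.405. Of the member regions 40.9% were higher in the first group, against 53.3% of all. Without Bin1 the member regions split 9 to 5 (64.3% higher), so that their excess of lower regions rested on that gene.

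**Figure D4:**
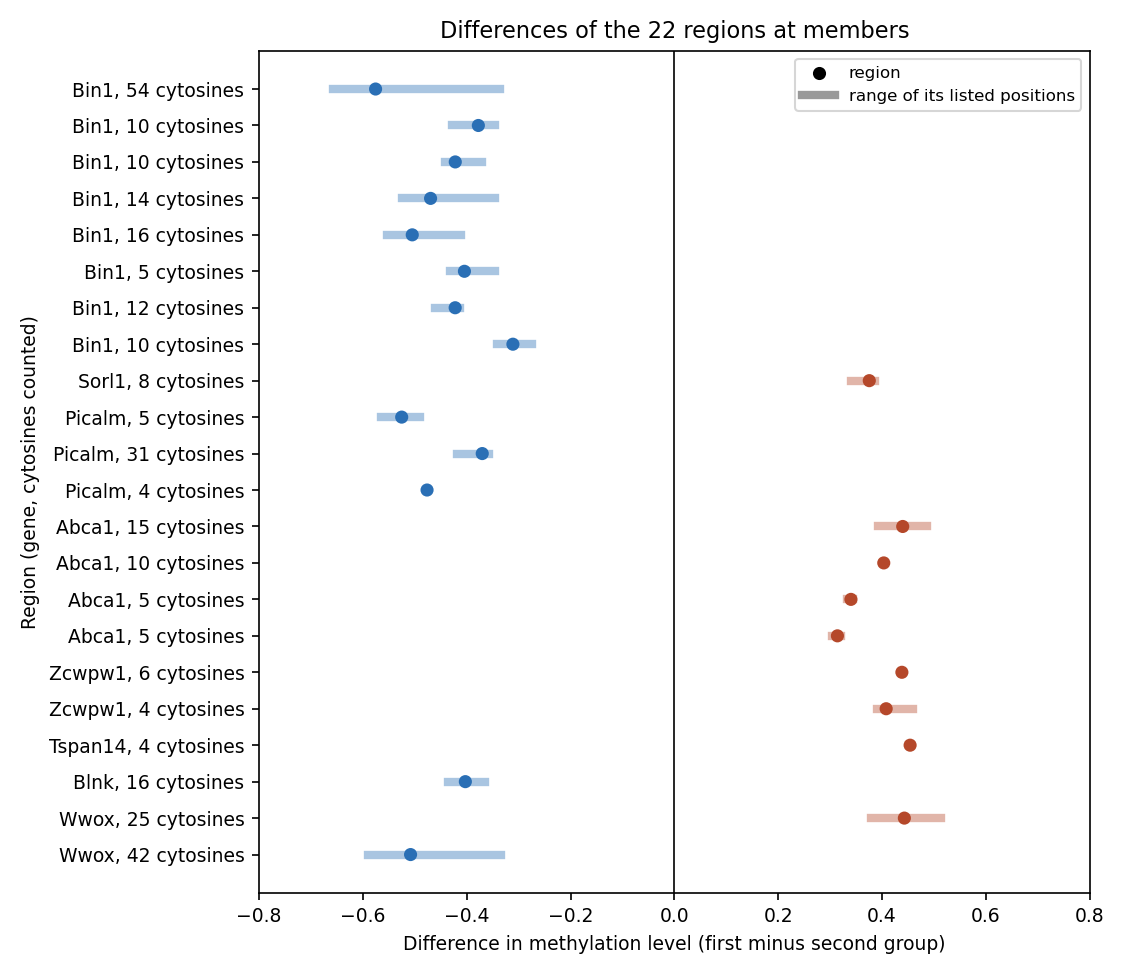
Difference in methylation level (x axis, first minus second group) of each of the 22 member regions (rows, with the number of cytosines the authors counted). Points are the deposited region values and bars the range over the listed positions inside the region. All 8 Bin1, 3 Picalm and 1 Blnk regions lie left of 0 (blue), all 4 Abca1, 2 Zcwpw1, 1 Sorl1 and 1 Tspan14 regions right of it (red), and Wwox has 1 on each side.

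Regions of one gene mostly went the same way. Of the 5 members with 2 or more regions, 4 (Bin1, Picalm, Abca1 and Zcwpw1) had all of theirs in one direction. Over all genes with 2 or more regions this held for 377 of 523 (72.1%). All 22 member regions lay inside the gene and none in the flanking 10000 bp. Over all protein-coding genes 75.3% of the gene and region pairs were inside. That share was not weighted to the members' lengths, and a long gene fills more of its window than a short one. In the transcript with the longest coding sequence, 20 of the 22 lay in an intron and 2 touched a coding exon. Of the intronic ones 10 were in the first intron, most of them in Bin1. Within 2000 bp of an annotated transcript start of the same gene lay 4. They include a Bin1 region 32251 bp and the Sorl1 region 148313 bp from the start of the gene itself. These places were not counted over all regions, so the counts describe the members alone.

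The composite element bound by PU.1 with IRF8, here GGAA, any 2 bases, then GAAA, was searched on both strands. It was found in 1 of the 22 member regions, in the first intron of Bin1 (chr18:32393160-32393623), against 9.38% of all regions. Among lower regions it was in 1 of 13 at members and in 17.6% of all. With 300 bases around the middle of each region, so that all had the same length, it was in 2 of 22, against 11.2% of all, and the second was the Picalm sequence shown with its capitals. Around the 9 higher member regions it was found 0 times, where 2.38% of all such windows held it. The element GAAA, any 2 bases, then GAAA, which IRF factors bind without an ETS factor, was in 1 member region (Wwox, intron 6), against 4.84% of all regions. TGA, any base, then TCA, the site of AP-1 factors, was in 2, against 10.4%. The ETS core GGAA, which the composite element contains, was in 21 of 22, against 85.0%. These counts at members are too small to be set apart from those of all regions, and a match or its absence says nothing of binding.

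A second list of 46 genes named at other risk loci was counted in the same way, of median length 25.9 kb. A region lay at 11 of them (23.9%) and a position past the threshold at 19 (41.3%), where 11.5% and 36.6% of genes of like length had one. In the gene bodies alone 9 had a region. Which of the regions named below lay inside the gene was not recorded. Apoe spans 3080 bp, so its window was mostly flanking sequence. The 21 regions of the second list split into 13 higher and 8 lower, where the members had 9 and 13. All regions were higher at Apoe, the lipid carrier of the strongest common risk locus (4 regions, the largest by area with 0.461 in the authors' deposited table), and at Spred2, an inhibitor of Ras signalling (4 regions). Single regions higher in the first group lay at the lysosomal genes Grn and Ctsh and at the sorting nexin Snx1, and the authors' deposited table gives them 0.455, 0.520 and 0.371. Lower regions lay at Ica1 (3, the largest by area -0.382), Tpcn1 (-0.435), Usp6nl (-0.425) and Ngef (-0.388), per the authors' deposited table. The transcription factor gene Mef2c had 1 higher and 2 lower regions, with 0.436 for the largest by area in the authors' deposited table. Trem2, a receptor of microglia, had no listed position, and Spi1, which encodes PU.1, had 4 with none past the threshold.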

How the data were processed

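Sorted microglia were profiled by whole-genome bisulfite sequencing in 2 WT and 2 IRF8KO samples. Per the submitters' processing notes, Bismark and Trim Galore were used with mm10. How regions and positions were tested is not given in the sources used here. Deposited tables give, per the file headers, a difference with its standard error, a p-value and an FDR per position, and an area score per region. The 4 columns with a level per numbered group were left out, because the headers tie neither number to a genotype. The sign of the difference, first minus second group, was checked on the files. Coverage, replicate spread and library depth are unknown. The smallest posterior listed was 0.95. Deposited row numbers, which follow position up to 42734461, gave the tested positions in a window by interpolation. Of the listed positions 78.0% lay on a CpG of GRCm38, and neighbouring positions share fitted values.

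Rows were joined to GENCODE M21 protein-coding genes with 10000 bp on each side (Python 3.11.15, pandas 2.3.3, pysam 0.24.0). Sequences came from the RefSeq GRCm38 genome. Window counts were tested on simulated data. No test was added, and lists are described by counts beside all genes. Members and lists were chosen with earlier results of these data known, and the groups by function and the length classes after the values had been seen. The class edges were then moved once. All members were named, every region at a member was given, and for members without a region the position of smallest FDR where one passed 0.05. Of the second list, genes with a region were named, except 1 that is counted but not reported here. Alternatives changed the window, gene model, region content, FDR and position class.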

Additional observations from a re-analysis of the deposited data

How the results depend on the processing

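No paired analysis was possible because values per sample are absent from both tables. Nor could replicates be left out or blocked, or positions be filtered on coverage. After the values had been seen, the settings without Bin1, the 300-base windows, the other length classes and the alternatives of the second list were added. The members with a region numbered 8 in the gene body alone, within 5000 bp and with the longest coding transcript, and 10 within 50000 bp, where Cd2ap and Scimp were added. With at least 10 cytosines 5 were left. Members with a listed position numbered 27 in gene bodies alone, against 33. Members with a position past the threshold fell from 19 to 12 with an FDR under 0.001, to 15 at reference CpGs and to 9 with positions of their own dispersion. The 224 positions past the threshold fell to 111 with an FDR under 0.001, to 115 with their own dispersion and to 56 when clusters within 500 bp were counted. With the class edges first drawn, up to 25 kb higher, the share of genes of like length came to 5.03 members with a region instead of 5.32. The FDR, dispersion and cluster settings admit fewer positions or group the same ones.

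The share of these positions higher in the first group, 29.5%, was 22.4% at reference CpGs and 14.8% with their own dispersion. It was 42.8% over all listed positions and 46.4% over clusters. Without Bin1 it was 49.3%, a nearly even split. Of the 134 positions left without Bin1, Wwox held 54, with 18 higher and 36 lower in the first group. The share of regions higher, 40.9%, was between 23.1% and 36.8% with the region limits and reversed to 64.3% without Bin1, whose 8 regions were all lower. Listed positions made up 0.892% of tested positions in the member windows, against 0.537% over all genes. The share was 0.964% in gene bodies alone, 0.227% with positions past the threshold only and 0.707% without Bin1. With the region limits the median absolute difference lay between 0.422 and 0.430. The composite element was in 4.55% of the 22 regions, in 5% to 7.69% with the region limits and in 9.09% with the 300-base windows. The region limits keep subsets of the same 22 regions, of which 8 lay in Bin1, so the settings are not independent.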

Other observations

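Of the 22 regions at members, 8 held fewer than 3 reference CpGs (37.7% of all regions did). They include the Tspan14 region, both Zcwpw1 regions and the smaller regions of Abca1 and Picalm. Of the 38 listed positions in these 8 regions, 29 lay on a reference CpG, counted on both strands. In the second Zcwpw1 region this held for 1 of 4, and in the Tspan14 region for 2 of 4. Of the 224 positions past the threshold at members, 156 lay on a reference CpG, in 104 CpG pairs. At Abi3, Adam17, Cass4 and Celf1 none of the positions past the threshold lay on one.

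Related or neighbouring members differed in their counts of listed positions. Abca1 had 81 listed positions, all higher in the first group. Abca7 had 13, all lower, in 1 cluster beyond the end of the gene and none past the threshold. Whether another gene lies at that cluster was not recorded. Slc24a4 had no listed position among about 3554 tested, and Rin3, the next member on chromosome 12, had 64 among about 3014.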
